A study of Mus musculus with 4 samples.

Results

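The renin angiotensin system was followed in single cells of mouse glomeruli, the filtering tufts of the kidney, through 7 genes: Ren1, Akr1b7, Agt, Ace, Agtr1a, Agtr1b and Enpep. They were picked by symbol from the 52636 genes of the deposited feature list. The glomeruli came from the kidneys of young and aged mice that received no treatment, and there were 2 young and 2 aged libraries. Glomeruli were caught on magnetic beads that had been perfused through the heart, so vessel segments that carry beads or stay attached to the tuft can be sampled with it. The age in months, sex, strain, genotype and number of mice per library are not given in the sources used here. The p-values below therefore measure the spread between libraries, which may be technical.

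Renin, the product of Ren1, is released by granular cells of the afferent arteriole and cuts angiotensinogen, the product of Agt, to angiotensin I. Angiotensin-converting enzyme, encoded by Ace, trims this to angiotensin II, which constricts smooth muscle and mesangial cells through the type 1 receptors encoded in mice by Agtr1a and Agtr1b. Enpep encodes glutamyl aminopeptidase, which shortens angiotensin II further and is known as a surface enzyme of podocytes. Akr1b7, an aldo-keto reductase, is known as a second gene of renin cells.

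The promoters of Ren1 and Akr1b7 are printed because these genes were highest in the same class of cells. Each is the 250 bases before the RefSeq start of the gene on the plus strand of GRCm38.p6, 5′ to 3′, at chr1:133350424-133350673 for Ren1 and chr6:34412112-34412361 for Akr1b7. Capitals mark matches to 4 motifs searched on both strands.
Ren1: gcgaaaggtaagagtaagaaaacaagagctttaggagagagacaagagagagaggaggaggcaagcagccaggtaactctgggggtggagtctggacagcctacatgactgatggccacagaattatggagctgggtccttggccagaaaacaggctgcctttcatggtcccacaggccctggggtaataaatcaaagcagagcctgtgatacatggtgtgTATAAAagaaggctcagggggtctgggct
Akr1b7: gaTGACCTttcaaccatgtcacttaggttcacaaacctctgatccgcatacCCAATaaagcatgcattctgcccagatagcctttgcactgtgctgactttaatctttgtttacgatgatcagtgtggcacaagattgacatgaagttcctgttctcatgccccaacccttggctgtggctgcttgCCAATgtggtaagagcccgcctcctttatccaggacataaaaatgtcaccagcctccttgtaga
In Ren1 the TATA box motif TATAAA lay 29 to 24 bases before the start; 12.4% of 32851 RefSeq promoter windows of this length hold it. In Akr1b7 the CCAAT box motif lay at 199 to 195 and at 64 to 60 bases before the start, and 33.8% of the windows hold it. The nuclear receptor half-site AGGTCA, present in 14.0% of the windows, lay on the minus strand of the Akr1b7 window at 248 to 243 bases, where the plus strand reads its reverse complement. The cyclic AMP half-site TGACG, present in 17.8% of the windows, was in neither. GENCODE vM21 begins both genes inside these windows, Ren1 at base 133350510 and Akr1b7 at base 34412334, so the 2 annotations place the starts differently. RefSeq promoter entries matched 6 of the 7 genes.

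In GENCODE vM21 (GRCm38) all 7 are protein coding. Ren1 spans chr1:133350510-133360325 on the plus strand and overlaps no other gene. Akr1b7 spans chr6:34412334-34423142 (plus) and overlaps the pseudogene Gm13857 on the other strand. Agt lies at chr8:124556534-124569706 (minus). Ace lies at chr11:105967945-105989964 (plus), opposite the antisense gene Gm11651. Agtr1a lies at chr13:30336441-30382867 (plus) around the intronic gene Gm48161, and Agtr1b at chr3:20314473-20367177 (minus). Enpep lies at chr3:129269175-129332720 (minus), opposite the pseudogene Gm42628. The counts are per gene, so exons and untranslated parts cannot be told apart. No stretch of 90 bases was shared between the transcripts of Agtr1a and Agtr1b, or between those of Akr1b7 and its relatives Akr1b8 and Akr1b10.

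The files held 33323 barcodes, with 18457791 to 42046542 counts of unique molecular identifiers (UMIs, each standing for 1 captured transcript) per library. Filters left 28000 cells, of which 21879 were placed in a cell class by markers that include none of the 7 genes, in clusters made without them. Young replicate 2 stood apart. Its kept cells had a median of 1258 UMIs, against 2715 to 3730 in the other libraries, and 59.7% of them (4168 barcodes) sat in clusters with markers of several cell types, against 2.01% to 2.38% elsewhere. Such clusters enter no class. Between 37 and 75 barcodes per library also occurred in another library, at most 31 for any pair. Median mitochondrial shares were 4.15% to 5.09%.

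The class that held the renin cells is called smooth muscle and renin here. It had 67 and 90 cells in young replicates 1 and 2, and 59 and 37 cells in aged replicates 1 and 2. 6 of its 7 markers were found in each library, with Actg2 at 0, and their summed level was 18162 to 23174 CPM (UMIs scaled to a class sum of 1000000). Podocyte markers reached 152 to 670 CPM in it. In all, 5 classes had at least 20 cells in every library and were tested for age: podocyte, endothelial, mesangial, smooth muscle and renin, and monocyte or dendritic. Parietal epithelial cells, 12 and 17 young against 23 and 21 aged, were too few.

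Each gene had its own place in the glomerulus, as the plot of levels by class and library shows. Ren1 was highest in the smooth muscle and renin class in all 4 libraries, as was Akr1b7. Agtr1a was highest in mesangial cells and next in the smooth muscle and renin class, Enpep in podocytes, and Ace in the monocyte or dendritic class among the classes tested. Agt gave 17 UMIs and Agtr1b 4 UMIs in all kept cells.

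**Figure D1:**
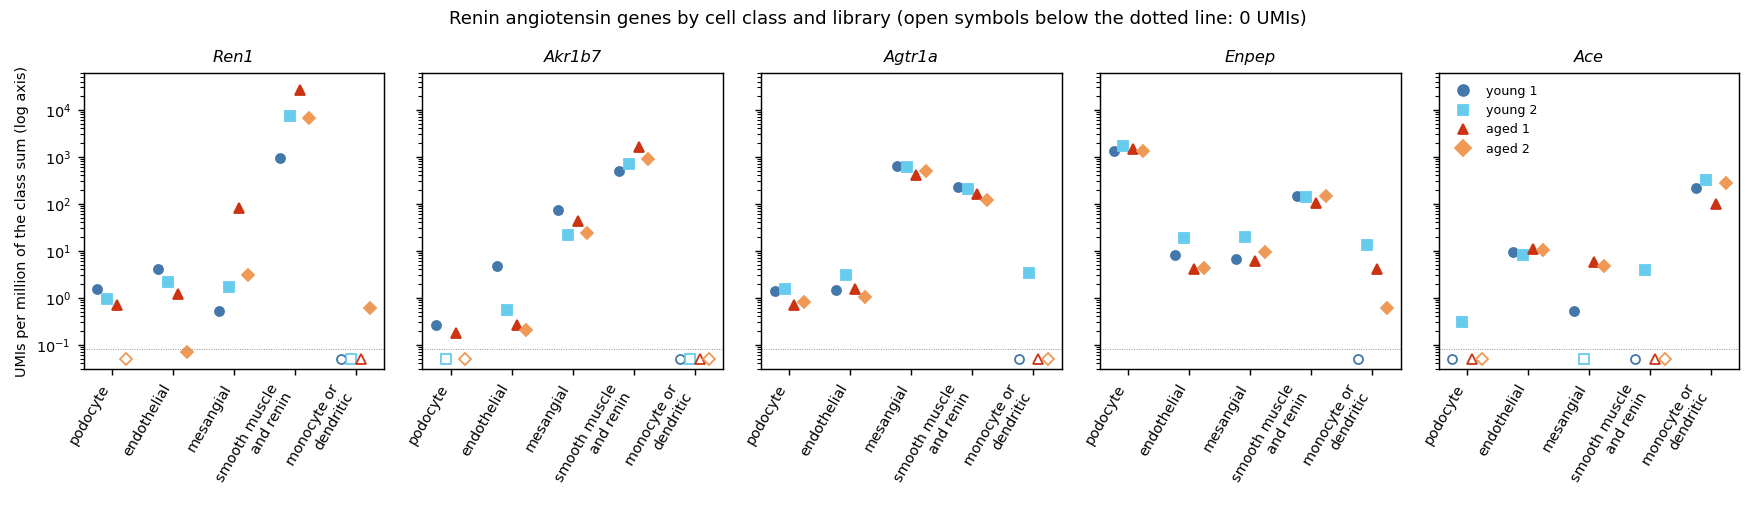
Level of 5 genes (UMIs scaled to a class sum of 1000000, log axis) in the 5 tested classes, 1 symbol per library, with open symbols below the dotted line for 0 UMIs. Ren1 runs from 957 to 26298 CPM in the smooth muscle and renin class, Agtr1a from 409 to 633 CPM in mesangial cells and Enpep from 1306 to 1672 CPM in podocytes.

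Ren1 in the smooth muscle and renin class measured 957 and 7269 CPM in young replicates 1 and 2, and 26298 and 6594 CPM in aged replicates 1 and 2, from 226, 1887, 5617 and 1058 UMIs. Aged replicate 1 was far above the other libraries and young replicate 1 far below them, while young replicate 2 exceeded aged replicate 2, so the age groups overlapped. The fitted ratio of aged to young was 4.18, a log2 fold change of 2.06 (SE 0.64), with an adjusted p of 0.13 by edgeR's quasi-likelihood test. Ren1 was thus not called, since a call needed an adjusted p under 0.05 over all genes tested in the class. Of the 7 genes, 4 passed the count filter in this class and 1 was called, against 1.26% of the 3640 genes tested (0.797% higher and 0.467% lower in aged); the 2 genes whose groups did not overlap, Akr1b7 and Agtr1a, stand beside 43.3% of all genes.

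Few cells carried most of the Ren1 UMIs. A Ren1-rich cell is defined here as having at least 5 Ren1 UMIs that make up at least 0.5% of its UMIs. In the smooth muscle and renin class there were 3 and 7 such cells in young libraries against 17 and 7 in aged ones, which is 44.8 and 77.8 young against 288 and 189 aged per 1000 cells of the class. Both aged shares were above both young ones. The difference of 177 per 1000 gave p = 0.33 in an exact permutation test (two-sided), the smallest that 2 against 2 libraries can give. The class itself made up 1.33% and 1.29% of kept cells in young against 0.642% and 0.544% in aged libraries, so the base of these shares differed with age. The richest kept cells held 135 and 706 Ren1 UMIs in young against 1342 and 567 in aged libraries, up to 31.3% of all UMIs of a cell. The 5 richest cells of each library gave 93.4%, 91.8%, 78.8% and 92.6% of the Ren1 UMIs of the class.

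Counted over all kept cells, the order changed. Ren1-rich cells made up 0.596 and 7.74 per 1000 kept cells in young libraries against 2.5 and 1.03 in aged ones (3, 54, 23 and 7 cells). Young replicate 2 was highest and young replicate 1 lowest, with the aged libraries between them. The difference, aged minus young, was −2.40 per 1000 (p = 1.0, exact permutation test, two-sided), and it was 1.17 without young replicate 2. In that library 36 of the 54 cells sat in clusters of mixed markers and 11 were mixed cells of the smooth muscle and renin cluster. With a limit of 0.1% of UMIs the counts were 7, 63, 40 and 9 cells, and with 2% they were 1, 38, 10 and 3.

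The doublet filter fell heavily on these cells. Barcodes removed as doublets, 4.2% of those that passed the other filters in young replicate 1 and 7.99% in aged replicate 1, held 3402 of the 4283 Ren1 UMIs of young replicate 1 (79.4%) and 3589 of 9682 in aged replicate 1 (37.1%). In young replicate 2 they held 191 of 7132 and in aged replicate 2 only 11 of 1102. In young replicate 1 the 3 richest removed barcodes had 1285, 1255 and 669 Ren1 UMIs, 27, 30 and 10 Akr1b7 UMIs, and 0 UMIs of the endothelial genes Pecam1, Cdh5 and Emcn. The richest barcode of aged replicate 1, with 3525 Ren1 UMIs among 10972 and 87 Akr1b7 UMIs, had 1 UMI of the endothelial genes. Whether these barcodes are true doublets of renin cells was not tested.

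**Figure D2:**
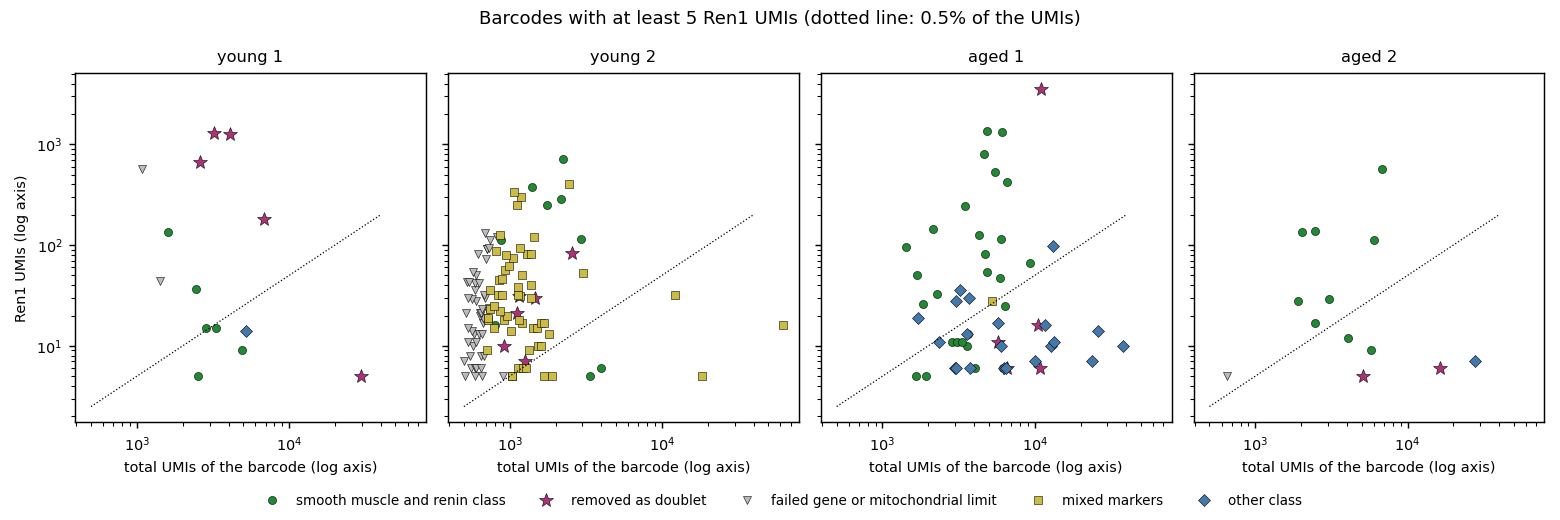
Ren1 UMIs against total UMIs of each barcode with at least 5 Ren1 UMIs, by library (both axes log), coloured by what became of the barcode; the dotted line marks 0.5% of the UMIs. The highest points of young replicate 1 (1285 and 1255 Ren1 UMIs) and of aged replicate 1 (3525) are barcodes removed as doublets, and most points of young replicate 2 are mixed or failed a filter.

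With no doublets removed, Ren1 in the class measured 13956 and 7323 CPM in young against 38965 and 6079 CPM in aged libraries. Young replicate 1 rose above young replicate 2, aged replicate 2 became the lowest library, and the log2 fold change was 1.14 with an adjusted p of 0.38. There were then 6 and 7 young against 18 and 7 aged Ren1-rich cells in the class, 85.7 and 79.5 against 286 and 175 per 1000. The order of the aged over the young shares was the same as with doublets removed. With a mitochondrial maximum of 10% the Ren1 level was 406 and 4157 CPM young against 28973 and 7029 CPM aged, and with mixed cells kept it was 810 and 4895 against 25014 and 6316 CPM. Under these settings the groups did not overlap, and the log2 fold changes of 3.02 and 2.54 were not called (adjusted p 0.13 and 0.19). Single libraries moved the log2 fold change as well. It was 0.75 without aged replicate 1, 1.23 without young replicate 1, 4.15 without young replicate 2 and 2.76 without aged replicate 2. Each of these fits left 1 library in a group, so no spread within that group was measured.

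The other cells of the class held little Ren1, at 170 and 109 CPM in young and 806 and 243 CPM in aged replicates 1 and 2. In aged replicate 1, 10 of these 42 cells lay just under the limit with 5 to 25 Ren1 UMIs each and held 103 of their 111 UMIs, and the remaining 32 cells held 8. In the other libraries 3, 2 and 2 such cells held 29 of 39, 11 of 27 and 21 of 33 UMIs. These cells were set apart by their Ren1 level, so the values are a description with no test. Over the whole class a Ren1 UMI was seen in 16.4% and 20.0% of young and 50.8% and 43.2% of aged cells, at median depths of 2965 and 2250 against 3328 and 3532 UMIs. Thinned to 500 UMIs per cell the shares were 8.96% and 13.3% young against 42.4% and 35.1% aged. In podocytes, which should lack renin, the unthinned share was 0% to 0.621% at medians of 4194 to 7678 UMIs.

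Akr1b7 was called higher in the aged smooth muscle and renin class. It measured 487 and 689 CPM in young replicates 1 and 2, and 1611 and 904 CPM in aged replicates 1 and 2, from 115, 179, 344 and 145 UMIs. Both aged libraries exceeded both young ones, with aged replicate 1 the highest. The fitted ratio was 2.24, a log2 fold change of 1.16 (SE 0.24) with an adjusted p of 0.0232 by edgeR's quasi-likelihood test. The call did not hold in 6 of 14 alternatives, among them the removal of young replicate 1 (adjusted p 0.62), young replicate 2 (0.39) or aged replicate 1 (0.16), and with no doublets removed the value was 0.97 with an adjusted p of 0.0781. Mesangial markers in this class were 1977 and 1730 CPM young against 2786 and 3066 CPM aged, and endothelial markers 284 and 489 against 159 and 93.5 CPM; the part of either in the call was not tested.

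Akr1b7 UMIs followed the Ren1-rich cells only in part. In the rich cells the level was 1013 and 6633 CPM in young against 3719 and 1822 CPM in aged libraries, against 471, 396, 450 and 737 CPM in the other cells of the class. The rich cells were above the others in each library. With the rich cells left out the log2 fold change of Akr1b7 fell to 0.49 with an adjusted p of 0.46, and aged replicate 1 lay among the young libraries. The smooth muscle gene Myh11 went the other way in 3 libraries. In young replicates 1 and 2 and aged replicate 1 it was 1592, 1392 and 1359 CPM in the rich cells. The other cells there had 3061, 2635 and 2526 CPM. In aged replicate 2 Myh11 was higher in the rich cells (2631 against 1886 CPM). The young replicate 1 value came from 11 UMIs in 3 rich cells. Acta2, Cnn1 and Mustn1 had the same order as Myh11 in each library. Tagln and Rgs5 did not, being higher in the rich cells of young replicate 1 (9409 against 7813 and 8107 against 7055 CPM).

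**Figure D3:**
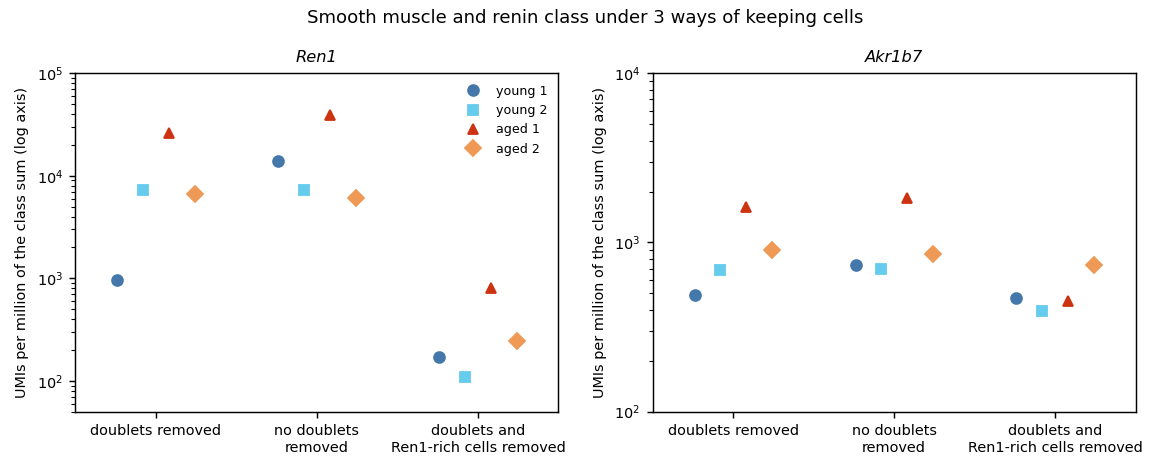
Ren1 (left) and Akr1b7 (right) in the smooth muscle and renin class (UMIs scaled to a class sum of 1000000, log axis), 1 symbol per library, under 3 ways of keeping cells. Young replicate 1 moves from 957 to 13956 CPM of Ren1 when no doublets are removed, and with the Ren1-rich cells left out Akr1b7 lies at 396 to 737 CPM with the groups overlapping.

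Akr1b7 was also found in mesangial cells, where Ren1 was nearly absent from the young libraries. It measured 72.6 and 22.2 CPM in young against 42.6 and 24 CPM in aged libraries, in 18.4%, 11.2%, 10.8% and 7.22% of cells. Young replicate 1 was highest and the groups overlapped, with a log2 fold change of −0.48 (SE 0.37) and an adjusted p of 0.49. Without aged replicate 1, which left 1 aged library, it was −1.01. The age effect in the smooth muscle and renin class exceeded that in mesangial cells by 1.62 on the log2 scale (SE 0.33, adjusted p 0.0074, edgeR interaction with library as a block).

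Ren1 outside its own class was low. In endothelial cells it measured 4.09 and 2.18 CPM in young against 1.18 and 0.069 CPM in aged libraries, from 25, 8, 18 and 1 UMIs. Both young libraries were above both aged ones, and Ren1 was called lower in aged, with a log2 fold change of −2.25 (SE 0.62) and an adjusted p of 0.0366. In young replicate 1 a single barcode held 14 of the 25 UMIs together with 13 Akr1b7 UMIs. The call was lost with DESeq2 (adjusted p 0.16), without young replicate 1 (0.42), without aged replicate 2 (0.20) and with no doublets removed (0.26). In podocytes 12 and 3 young UMIs faced 4 and 0 aged ones, too few for the test.

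Values for carried-over RNA stood beside these. As a share of the level in the smooth muscle and renin class of the same library, endothelial Ren1 was 0.428% and 0.0300% in young against 0.00447% and 0.00105% in aged libraries. The same share for the summed smooth muscle markers was 0.126%, 0.120%, 0.169% and 0.132%. With no doublets removed the Ren1 share of young replicate 1 was 0.0130%, below the 0.0303% of young replicate 2, and the aged shares were 0.00317% and 0.00112%. Barcodes under 500 genes, whose nature as cells or empty droplets was not tested, had Ren1 at 1039 and 1232 CPM in young against 10.8 and 17.5 CPM in aged libraries. Without Ren1-rich barcodes these became 5.52, 60.3, 10.8 and 0 CPM. The mixed clusters of young replicate 2 held Ren1 at 440 CPM, and at 57.1 CPM without their rich barcodes, against 0.649 to 9.51 CPM in the mixed clusters of the other libraries. Young replicate 2 was highest in low-gene barcodes with and without the rich ones, while young replicate 1 fell below aged replicate 1 once they were left out. The part of carried-over Ren1 in the endothelial call was not tested.

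In mesangial cells Ren1 gave 1 and 2 UMIs in young against 402 and 18 in aged libraries, or 0.511, 1.71, 79.7 and 2.98 CPM. Aged replicate 1 alone was high. In it 44 cells held a Ren1 UMI and 5 of them were Ren1-rich; without these 5 the level was 38.1 CPM. Ren1 passed the count filter in this class only through the aged libraries. The log2 fold change was 5.49 (SE 1.59) with an adjusted p of 0.0506, which was not called. It was called in 5 of 11 alternatives. Among them were no filter on low counts (adjusted p 8.0e-33) and the replicate block (6.2e-12). The others were mixed cells kept (0.0408), the limit of 0.35 on unrelated markers (0.0453) and the removal of aged replicate 2. That removal left aged replicate 1 as the only aged library, so no spread between aged libraries entered the fit. The highest adjusted p was 0.46, without young replicate 1. Smooth muscle markers in the mesangial class were 89.0 and 83.6 CPM in young against 120 and 188 CPM in aged libraries, with aged replicate 2 the highest. The part of smooth muscle and renin cells or their RNA in mesangial Ren1 was not tested.

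Agt, the only substrate of renin, was almost unseen. It gave 15, 2, 10 and 4 UMIs in all barcodes of the 4 libraries, and 0 in podocytes, endothelial cells, mesangial cells and the smooth muscle and renin class of each library. Its UMIs in classes came from the few proximal tubule cells (2 UMIs in 5 cells of young replicate 1 and 5 UMIs in 12 cells of aged replicate 1) and from parietal epithelial cells (2 UMIs in young replicate 2 and 3 in aged replicate 1). In young replicate 1, 11 of the 15 UMIs lay in barcodes removed as doublets. A level of Agt in the tuft was not detectable at this depth.

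Ace, the converting enzyme, was found in monocyte or dendritic cells and in endothelial cells, and was at or near 0 in podocytes (0, 1, 0 and 0 UMIs) and in the smooth muscle and renin class (0, 1, 0 and 0 UMIs). In the monocyte or dendritic class it measured 214 and 319 CPM in young against 101 and 274 CPM in aged libraries, from 77, 95, 124 and 462 UMIs. Aged replicate 1 was lowest, and the groups overlapped. The log2 fold change was −0.46 (SE 0.34) with an adjusted p of 0.68. Without aged replicate 2, which left 1 aged library, it was −1.29. It was the 1 gene of the 7 that passed the filter in this class, where 1.46% of 6372 genes were called (0.989% higher, 0.471% lower) and the groups did not overlap for 42.1%. Within the class Ace lay in the cluster led by Clec4e, Lyz2 and Cybb, at 265 and 372 CPM in young against 152 and 353 CPM in aged libraries, and was at 17.3 to 47.0 CPM in the cluster led by Cd209a. At clustering resolution 2 the class had 72 and 42 young and 220 and 127 aged cells, and its Ace level was 55.1 and 45.6 against 26.2 and 61.4 CPM. Macrophages, seen almost only in the aged libraries, held 21.8 and 22.8 CPM there.

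Endothelial Ace measured 9.33 and 8.18 CPM in young against 11.2 and 10.5 CPM in aged libraries. The aged pair was above the young pair, but the step was small beside its error, with a log2 fold change of 0.41 (SE 0.22) and an adjusted p of 0.34. Levels differed between endothelial clusters. In the cluster led by Esm1, Igfbp3 and Slc45a4 it was 44.6 and 40.0 CPM in young against 36.2 and 34.4 CPM in aged libraries. This cluster held 208 of 2333 and 80 of 1285 young endothelial cells against 871 of 5773 and 481 of 3894 aged ones. The cluster led by Sele and Selp, lower in Ace, held 60 and 49 young against 762 and 552 aged cells. The part of cluster make-up in the Ace level of the class was not tested. The 2 largest endothelial clusters, led by Ier5l and by Plaur, were at 3.10 to 12.1 CPM, and the cluster led by Sele and Selp at 4.48 to 7.21 CPM.

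**Figure D4:**
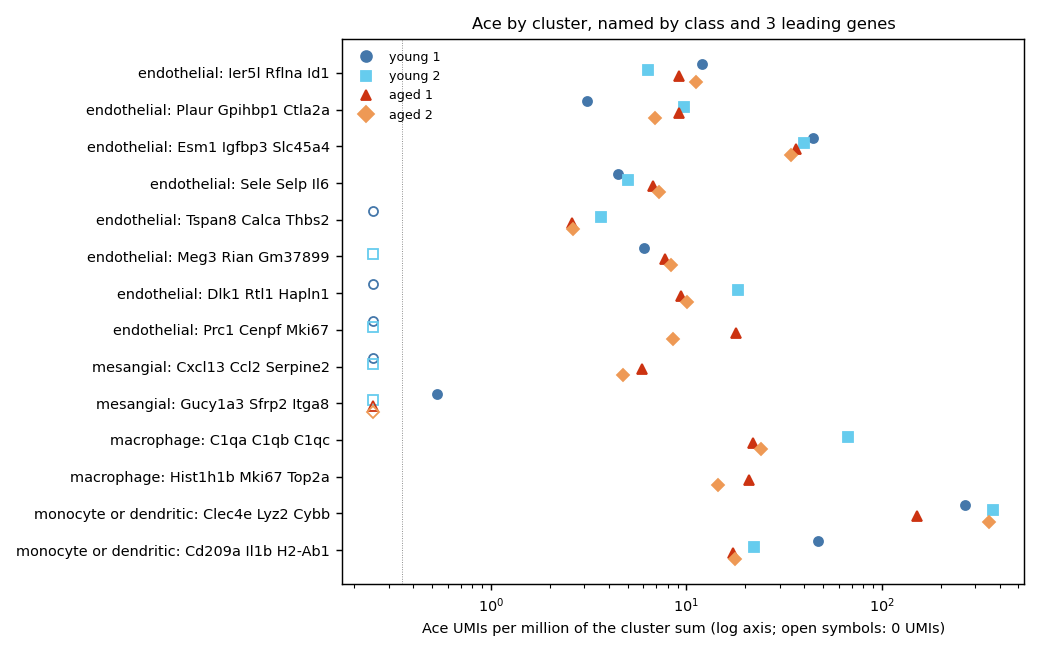
Ace (UMIs scaled to a cluster sum of 1000000, log axis) in each cluster of 4 classes with at least 10 cells in a library, 1 symbol per library, open symbols for 0 UMIs. The Clec4e-led cluster (152 to 372 CPM) and the Esm1-led cluster (34.4 to 44.6 CPM) are the highest of their classes, and the 2 mesangial clusters are at or near 0 apart from the aged libraries of the Cxcl13-led cluster.

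Mesangial Ace was called higher in aged glomeruli, at a low level. It gave 1 and 0 UMIs in 283 and 179 young cells and 29 and 28 UMIs in 688 and 540 aged cells, or 0.511 and 0 CPM against 5.75 and 4.63 CPM. The aged UMIs were spread over 29 and 26 cells, with at most 2 in a cell. The fitted log2 fold change was 3.98 (SE 0.86, adjusted p 0.0121). With so few young UMIs its size depends on the fit. Ace passed the count filter here only through the aged libraries, where it was high, so the call is read as a description. The call was lost in 4 of 13 alternatives, among them DESeq2 and the removal of young replicate 1 or of young replicate 2. Keeping mixed cells, the remaining alternative, moved the log2 fold change to 1.37 with an adjusted p of 0.0558.

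The aged and young mesangial cells lay in different clusters. All aged Ace UMIs were in the cluster led by Cxcl13 and Ccl2, with 659 and 522 aged cells, at 5.91 and 4.71 CPM. Its young part had 26 and 15 cells and 67832 and 50697 UMIs in total, with 0 of Ace, so a level like the aged one was not detectable there. The cluster led by Gucy1a3 and Sfrp2 held 257 and 164 young against 29 and 18 aged cells, and 0 Ace UMIs in the aged ones. Cluster and age therefore cannot be told apart for this gene. Markers of the monocyte or dendritic list were at 7.16 and 5.97 CPM in young and 8.73 and 8.60 CPM in aged mesangial cells. Of these markers, Ly6c2 and Cd209a were at 0 in all 4 libraries. Itgax was at 0 in both young libraries and found in both aged ones, and Flt3 and Clec9a were found only in aged replicate 2. The macrophage list stood at 463 and 508 against 459 and 326 CPM, with C1qa at 0 in both young libraries and found in both aged ones. The part of other cells in mesangial Ace was not tested. Ace was 1 gene called of 5 that passed the filter in this class, where 7.47% of 10938 genes were called (4.79% higher, 2.68% lower); the groups did not overlap for 3 of the 5 (Ren1, Ace and Agtr1a), against 53.7% of all genes.

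Agtr1a, the main type 1 receptor gene of rodents, marked mesangial cells in both age groups. It measured 633 and 606 CPM in young against 409 and 502 CPM in aged libraries, and 78.3% to 87.8% of mesangial cells held a UMI of it, against 0.214% to 0.856% of endothelial cells. Both aged libraries lay below both young ones, by a log2 fold change of −0.33 (SE 0.16) with an adjusted p of 0.23, which was not called. Thinned to 500 UMIs per cell the shares overlapped, at 30.0% and 20.7% young against 18.6% and 22.6% aged, while thinned to 1000 UMIs they did not, at 45.6% and 46.6% against 33.4% and 37.4%. Within the Gucy1a3-led cluster the levels were 633 and 604 CPM in young against 452 and 669 CPM in aged libraries and overlapped, the last 2 from 29 and 18 cells. Within the Cxcl13-led cluster, with 26 and 15 young cells, they were 634 and 631 against 408 and 499 CPM and did not overlap.

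In the smooth muscle and renin class Agtr1a measured 224 and 208 CPM in young against 159 and 118 CPM in aged libraries. Again both aged libraries were lower, with a log2 fold change of −0.56 (SE 0.25) and an adjusted p of 0.39. The age effects in this class and in mesangial cells differed by −0.19 (SE 0.29, adjusted p 0.91). Agtr1a in podocytes (0.714 to 1.56 CPM) and endothelial cells (1.04 to 3.0 CPM) was 0.162% to 0.495% of the mesangial level in the same library. The endothelial log2 fold change was −0.59 (adjusted p 0.55), and with mixed cells kept it was called at −1.13 (adjusted p 0.0491). Agtr1b, the other type 1 receptor gene, gave 4 UMIs in all barcodes, 2 of them in the smooth muscle and renin class of aged replicate 1, so no level could be set for it.

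Enpep in podocytes was abundant and did not differ with age beyond its error. It measured 1343 and 1672 CPM in young against 1433 and 1306 CPM in aged libraries, in 98.4% to 99.4% of cells. The groups overlapped, and the log2 fold change was −0.08 (SE 0.15) with an adjusted p of 0.86; it kept an adjusted p of at least 0.328 in each of 14 alternatives. Enpep was the only gene of the 7 to pass the filter in podocytes, where 6.57% of 10859 genes were called (4.33% higher, 2.24% lower) and the groups did not overlap for 46.3%. It was lower but present in parietal epithelial cells, at 267 and 245 CPM young and 235 and 299 CPM aged, and in the smooth muscle and renin class, at 148 and 139 against 103 and 143 CPM (log2 fold change −0.19, adjusted p 0.86). In mesangial cells it measured 6.65 and 19.6 against 6.15 and 9.59 CPM (log2 fold change −0.49, adjusted p 0.55). With no doublets removed the mesangial levels were 6.07 and 21.6 against 2.49 and 0.656 CPM and Enpep was called lower (−2.92, adjusted p 0.0233). At clustering resolution 2 they were 6.69 and 19.6 against 3.20 and 0.345 CPM, and it was called too (−2.69, adjusted p 0.0261).

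Endothelial cells were where Enpep was called. It gave 50 and 67 UMIs in young against 62 and 61 in aged libraries, or 8.19 and 18.3 against 4.05 and 4.21 CPM, with both young libraries above both aged ones and young replicate 2 the highest. The log2 fold change was −1.47 (SE 0.29) with an adjusted p of 0.00368, and without young replicate 2 it was −0.91 with an adjusted p of 0.0961. The age effect in endothelial cells was lower than in podocytes by 1.36 on the log2 scale (difference −1.36, SE 0.22, adjusted p 4.6e-05). Podocyte markers in endothelial cells moved with it: the 7 markers summed to 856 and 1218 CPM in young against 762 and 731 CPM in aged libraries. As a share of the podocyte level, endothelial Enpep was 0.610% and 1.09% young against 0.282% and 0.322% aged, and the marker sum 4.5% and 5.93% against 3.66% and 3.41%. The part of podocyte RNA in this call was not tested. With Ren1, this made 2 genes called of 4 that passed the filter in endothelial cells, where 6% of 12998 genes were called (3.95% higher, 2.05% lower), and the groups did not overlap for 3 of the 4, against 49.2% of all genes.

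**Figure D5:**
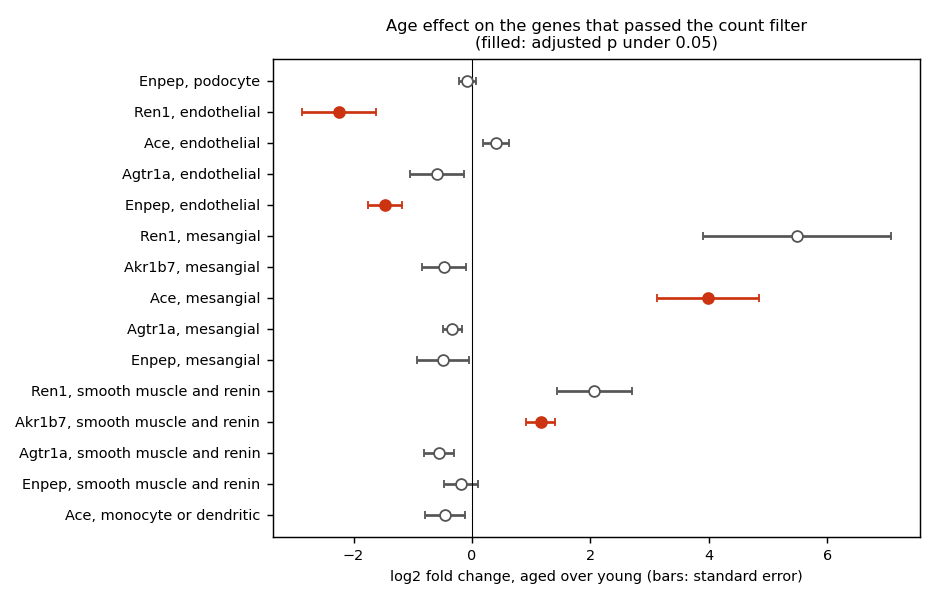
Log2 fold change of aged over young for each gene and class that passed the count filter, with bars for the standard error and filled points for an adjusted p under 0.05. The filled points are Ren1 and Enpep in endothelial cells (−2.25 and −1.47), Ace in mesangial cells (3.98) and Akr1b7 in the smooth muscle and renin class (1.16).

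Differences in age effect between classes were tested over 10 pairs of classes, which gave 16 differences in which both classes had passed the filter, and 6 were called. Of all genes, 7.08% were called between endothelial cells and podocytes, 4.29% between mesangial cells and podocytes, and 1.17% between the smooth muscle and renin class and podocytes. Against endothelial cells 2.62% were called for mesangial cells, 0.881% for the smooth muscle and renin class and 1.81% for the monocyte or dendritic class. Against mesangial cells it was 1.43% for the smooth muscle and renin class and 1.64% for the monocyte or dendritic class. Besides those given above, the effect on Ren1 in endothelial cells was lower than in mesangial cells (difference 7.81, SE 0.68, adjusted p 3.3e-06) and than in the smooth muscle and renin class (difference 4.89, SE 0.59, adjusted p 7.2e-11). The effect on Ace in mesangial cells was higher than in endothelial cells (difference 3.65, SE 0.93, adjusted p 0.0382) and than in monocyte or dendritic cells (difference −4.35 for the latter minus the former, SE 0.91, adjusted p 0.00273). These rest on the low UMI counts given above for Ren1 in endothelial and young mesangial cells and for Ace in mesangial cells. In mesangial cells both genes passed the count filter only through the aged libraries, so the differences that involve this class are descriptions. In the smooth muscle and renin class the Ren1 counts were higher, but the age groups overlapped and Ren1 was not called. None of these differences was recomputed under another setting. For Ren1 in mesangial against smooth muscle and renin cells the difference was −2.49 (SE 1.03, adjusted p 0.35).

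Other genes of the system were followed in 3 lists that hold none of the 7. Their counts are read beside the share of all genes called, which was 6.57% in podocytes, 6% in endothelial cells, 7.47% in mesangial cells, 1.26% in the smooth muscle and renin class and 1.46% in the monocyte or dendritic class. Of 22 further enzymes and receptors of angiotensin peptides, 13 passed the filter in endothelial cells and 1 rose, Prcp, which encodes a carboxypeptidase that acts on angiotensin II (8.95 and 13.9 CPM young, 19.1 and 18.9 aged, log2 fold change 0.78, SE 0.21, adjusted p 0.0327), a share near that of all genes. In the monocyte or dendritic class 1 of 8 rose, the lysosomal protease gene Ctsd (log2 fold change 1.55, adjusted p 0.00901). None of 11 in podocytes, 11 in mesangial cells and 3 in the smooth muscle and renin class passed the threshold. The list's median log2 fold change lay between 0.07 and 0.30 over the classes, against −0.02 to 0.01 for all genes tested.

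Of 20 genes of receptor signalling and its regulators, 13 to 17 were tested in podocytes, endothelial and mesangial cells. In mesangial cells Rgs4, an inhibitor of Gq signalling, fell from 198 and 146 to 60.5 and 50.1 CPM, and Trpc6, a calcium channel gene, fell from 43.7 and 27.8 to 19.5 and 19.8 CPM. Edn1, which encodes endothelin 1, rose from 16.4 and 20.5 to 78.7 and 78.2 CPM. Of 15 tested in endothelial cells, Rgs2 and Edn1 rose (log2 fold change 1.14 and 1.20), while of 13 in podocytes Rgs2 fell (−1.02). Endothelial Rgs5 fell too (−3.76), from 8.63 and 1.26 to 0.273 and 0.505 CPM, with young replicate 1 far above the rest. Its call did not stand without young replicate 1 or with no doublets removed. Rgs5 was a leading gene of the smooth muscle and renin cluster, and the part of carried-over RNA in this fall was not tested. None of 12 in the monocyte or dendritic class was called. The list's medians were −0.37 to 0.28. Rgs4 and Edn1 in mesangial cells and Rgs2 and Edn1 in endothelial cells were called in each of 14 alternatives.

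Of 25 genes known to act on renin cells, 13 passed the filter in the smooth muscle and renin class and 1 rose, Pde4b, which encodes a phosphodiesterase of cyclic AMP, from 189 and 175 CPM to 353 and 359 CPM (adjusted p 0.0479, lost in 6 of 14 alternatives). It rose also in podocytes, endothelial and mesangial cells (log2 fold change 0.72, 1.14 and 1.61). Ptgs2, which encodes cyclooxygenase 2, a source of prostaglandins that stimulate renin release, rose in mesangial cells from 13.9 and 18.8 to 135 and 129 CPM (log2 fold change 3.05, SE 0.21, adjusted p 4.8e-06) and in endothelial cells from 6.02 and 6.31 to 11 and 12.6 CPM. The receptor gene Ptger2 fell in mesangial cells (−1.97). In endothelial cells the connexin genes Gja1 and Gja5 fell (−1.18 and −0.55), the latter lost in 7 of 14 alternatives, and Pde3a rose (1.07). That made 5 of 20 genes called in endothelial, 3 of 19 in mesangial, 1 of 14 in podocyte and, with Nr1h3 (2.31), 1 of 9 in monocyte or dendritic cells; the podocyte count is near the 6.57% of all genes. The list's medians were −0.15 to 0.08.

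Early response genes, which dissociation can induce, were counted beside these. Of 13 tested in each class, 0 were called in the smooth muscle and renin class, 3 fell in mesangial cells (Jun, Egr1 and Atf3), 2 rose in endothelial cells (Ier3 and Dusp1), 4 rose (Atf3, Ier3, Hspa1a and Hspa1b) and 1 fell (Dusp1) in podocytes, and 1 rose (Ier3) in the monocyte or dendritic class. The shares of all genes called were 1.26%, 7.47%, 6%, 6.57% and 1.46% in these classes, in the same order. Their part in the results above was not tested.

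Likeness of pattern was measured as Pearson's r of log2(CPM + 1) over 34 class and library sums of 10 classes, among 10083 genes. The sums share libraries and depth, so r is a description. Ren1 was most like the smooth muscle genes Myh11, Synpo2 and Ldb3 (r 0.957, 0.956 and 0.941). Akr1b7 was most like Higd1b, Frem2 and Cygb (0.972, 0.968 and 0.965), and Agtr1a like Cd248, Twist1 and Tmeff2 (0.976, 0.972 and 0.970). Ace was most like Alox5ap, Tbc1d8 and Gda (0.944, 0.944 and 0.939), and Enpep like Gas1, the collagen gene Col4a4 and C1qtnf7 (0.940, 0.937 and 0.928).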

How the data were processed

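The 4 libraries of mouse glomerular cells are 2 young and 2 aged ones. The deposited files held whole-number counts of UMIs per gene and barcode, with no normalization by the authors, and every barcode in them had at least 500 UMIs. Cell Ranger 6.0.1 is named by the file headers and, with Partek, by the submitters' processing notes, the labels' protocol names 3.1.0, and the build is GRCm38. It was not settled which of the versions produced the counts. The 7 genes, the other gene lists and the markers were chosen with earlier results of these data known. The thresholds for a cell class and the monocyte or dendritic class were set after the data were seen, as were the alternatives with a limit of 0.35 and without Ren1-rich cells.

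A barcode needed 500 genes and a mitochondrial share of 20% or less. Scrublet, as run in scanpy 1.11.5, gave each library's doublet scores. Left to choose a threshold it marked 134 of 29876 barcodes (0.449%), and therefore the highest scores were removed at 0.8% per 1000 barcodes (1876 barcodes, 6.28%). Clustering used leidenalg 0.10.2 (resolution 1) on 2000 variable genes, the 7 genes left out, 30 components and 15 neighbours, and 23 of 31 clusters were named. A cluster was named for the class whose markers stood highest as a share of that class's top cluster, with 0.35 as the least share; a cluster with unrelated classes summing over 0.28, and single cells with at least 3 UMIs of an unrelated class at a level of 0.25, stayed out as mixed.

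UMIs were summed per class and library, at least 20 cells in each, and tested for aged against young with edgeR 4.0.16 in R 4.3.3 (quasi-likelihood F test, TMM, default expression filter, Benjamini-Hochberg over all genes of the class, called under 0.05). CPM in the text is scaled to a sum of 1000000; the fits use TMM-scaled libraries. SE is the log2 fold change over the square root of F. The test was checked on simulated data: of genes changed 4-fold it called 96% for podocytes, 91% for endothelial, 89% for mesangial, 89% for smooth muscle and renin and 74% for monocyte or dendritic sums, and of genes changed 2-fold 77%, 70%, 43%, 36% and 21%. Shares of cells were also computed after thinning to 500 UMIs per cell. The text names the 7 genes in each tested class, of other lists at most 6 called genes per class by smallest p, and the 3 genes most like each gene. DESeq2 1.42.0 was an alternative. Some results of the marker and signalling lists are not reported here.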

Additional observations from a re-analysis of the deposited data

Results flagged for a closer look

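The age effect on a gene differed between classes in 6 tests (edgeR interaction with library as a block, adjusted over all genes of the pair). The log2 difference for Enpep was −1.36 in endothelial minus podocyte cells. For Ren1 it was 7.81 in mesangial minus endothelial cells and 4.89 in smooth muscle and renin minus endothelial cells. For Ace it was 3.65 in mesangial minus endothelial cells and −4.35 in monocyte or dendritic minus mesangial cells. For Akr1b7 it was 1.62 in smooth muscle and renin minus mesangial cells. None of the 6 was recomputed under another setting, and Ren1 was not called by itself in mesangial or in smooth muscle and renin cells. In mesangial cells Ren1 and Ace passed the count filter only through the aged libraries.

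Ren1 also appeared in barcodes that no comparison used. Barcodes removed as doublets held 3402 Ren1 UMIs in young replicate 1, 191 in young replicate 2, 3589 in aged replicate 1 and 11 in aged replicate 2. Barcodes under 500 genes held 566, 1733, 7 and 5 in the same order, of which 563 in young replicate 1 came from 1 barcode and 1650 in young replicate 2 from 50 Ren1-rich barcodes. These are above the limit of 3 counts that a count of 0 allows.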

How the results depend on the processing

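The number of the 7 genes called was 0 in podocytes under each of 14 alternatives. In endothelial cells it was 2, 1 with DESeq2 or with no doublets removed, and 3 with no filter on low counts or with mixed cells kept. In mesangial cells it was 1, 0 with DESeq2, and 2 with no filter on low counts, no doublets removed, clustering at resolution 2 or a limit of 0.35 on unrelated markers. In the smooth muscle and renin class it was 1, 2 with no filter, and 0 with a mitochondrial maximum of 10%, with no doublets removed or without Ren1-rich cells. Totals of all genes called are given below for only some of these settings, so the counts are a description. Leaving out 1 library at a time gave 1 to 3 genes in endothelial cells, 0 to 3 in mesangial cells, 0 to 2 in the smooth muscle and renin class and 0 to 1 in the monocyte or dendritic class (1 without aged replicate 2), where an arm of 1 library is assumed to vary like the other arm. The cause was not tested, except that fewer libraries entered these fits. The difference in Ren1-rich cells per 1000 kept cells, −2.40, turned to 1.17 without young replicate 2; leaving out 1 library gave −5.97 to 1.17.

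Of the recomputed fold changes, 177 stayed on the same side of the threshold, 14 passed it and 15 no longer did. The 177 include changes of direction where neither fit was called. Mesangial Akr1b7, for example, had a main log2 fold change of −0.48 and reached 0.71 among the alternatives. Ren1 in the smooth muscle and renin class passed it with no filter on low counts (adjusted p 2.1e-21) and with the replicate block (0.0109). It also passed without aged replicate 2, where 1 aged library was left and no spread between aged libraries was measured. With DESeq2 it had an adjusted p of 0.90. All genes called were 713, 780, 817, 46 and 93 in podocyte, endothelial, mesangial, smooth muscle and renin, and monocyte or dendritic cells, against 270, 495, 417, 19 and 42 with DESeq2.

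Young and aged libraries share only a replicate number: deviations of same-numbered libraries had correlations of 0.03, 0.11, 0.05, −0.01 and 0.13 in the 5 classes. With the replicate block 2 genes were called in mesangial cells and 2 in the smooth muscle and renin class, against 1 in each without it, and 893, 1526, 1485, 113 and 354 of all genes. Of all genes tested in the smooth muscle and renin class, 0 were called without young replicate 1 and 1 without young replicate 2. Parietal epithelial cells had too few cells under each setting, so no test was run. Of the recomputed detection shares, 80 stayed within their interval and 64 moved. The age groups hold 2 libraries each, and 37 to 90 smooth muscle and renin cells per library limit what Ren1 and Akr1b7 can show.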

Other observations

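In mesangial cells a few cells held much of the Enpep. In aged replicate 1 the 31 UMIs came from 8 of 688 cells, with 13 in 1 cell, and in aged replicate 2 the 58 UMIs came from 8 of 540 cells, with 16 in 1 cell. In young replicate 2 the 23 UMIs came from 15 of 179 cells, with at most 7 in a cell. Akr1b7 in mesangial cells was likewise uneven, with up to 30 UMIs in a cell of aged replicate 2.

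Of the Ren1 UMIs in all deposited barcodes, 4283, 7132, 9682 and 1102 in young replicates 1 and 2 and aged replicates 1 and 2, the smooth muscle and renin class held 5.28%, 26.5%, 58.0% and 96.0%. Over the whole library, Ren1 stood at 191 and 386 CPM in young against 232 and 26.2 in aged libraries, so aged replicate 2 was the lowest by this measure.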
